A study of Homo sapiens with 12 samples.

Results

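Metallothioneins are small cysteine-rich proteins that bind zinc and copper and take up toxic metals such as cadmium, and the liver is one of their main sites of expression. Their genes lie side by side in one cluster on human chromosome 16. When free zinc rises, the transcription factor MTF1 binds short metal response elements in their promoters, and glucocorticoids and oxidative stress can raise them as well. The genes described here are the 10 members of this cluster named MT1A, MT1B, MT1E, MT1F, MT1G, MT1H, MT1L, MT1M, MT1X and MT2A. They were taken by symbol from tables of 98711 genes, and each symbol was found exactly once, under an Ensembl identifier. The set was drawn up with their levels in resistant and parental cells known, so the differences between resistant and parental cells are given below as a description, with no p-value, and intervals of read ratios cover counting error only.

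Huh7 and HepG2 are established human liver cancer cell lines, and sorafenib is a tyrosine kinase inhibitor (TKI) used against advanced hepatocellular carcinoma (HCC). According to the labels, resistant cells of each line, of genotype WT, had been exposed to sorafenib, first at 10 μmol and then at rising concentrations, over 8 months, whereas parental cells (named sorafenib sensitive) received no treatment. Each of the 4 groups holds 3 samples of RNA sequencing. It is not stated whether the resistant lines are pools or single clones, whether sorafenib was present at harvest, or whether the samples of a group are separate cultures, so that their spread may be technical. In bulk RNA, fewer cells that express a gene and less RNA per cell cannot be told apart.

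The values of the tables are used as FPKM, fragments per kilobase of exon scaled to the depth of the sample, a unit the tables do not state. The reads behind a sample, calculated back from the steps between values, numbered 12290136 to 19285975, and 120 of 120 values of the 10 genes were within 0.05 of a whole read. All 13 hepatocyte and fetal liver markers examined reached at least 1 FPKM in a sample of every group, with a summed level of 7680 to 7956 FPKM in resistant and 9115 to 10819 FPKM in parental Huh7, and of 7784 to 8569 FPKM in resistant and 8392 to 8998 FPKM in parental HepG2. The Huh7 groups did not overlap in this sum, but its markers moved in both directions. AFP was at 2291 ± 157 FPKM in resistant and 5332 ± 872 FPKM in parental Huh7, and at 366 against 1394 FPKM in HepG2. APOA2 was at 1472 ± 169 FPKM in resistant and 500 ± 22.4 FPKM in parental Huh7, and at 1408 against 584 FPKM in HepG2. The sum therefore does not give the direction of the single markers. Of 6 leukocyte markers, 4 or 5 stayed under 1 FPKM in all samples of a group, and the leukocyte list summed to at most 3.93 FPKM. The fibroblast or stellate list of 7 genes summed to 3.58 to 5.48 FPKM in Huh7 and to 15.4 to 26.2 FPKM in HepG2, with overlapping ranges in resistant and parental cells. Of 4 cholangiocyte markers, 3 reached 1 FPKM. Their sum was 142 to 154 FPKM in resistant and 83.3 to 106 FPKM in parental Huh7. In HepG2 it was 132 to 151 FPKM in resistant and 169 to 210 FPKM in parental samples. These markers moved in both directions as well. KRT19 was at 70.4 FPKM in resistant and 7.18 FPKM in parental Huh7, and at 13.4 against 7.19 FPKM in HepG2. SOX9 was at 52.3 FPKM in resistant and 78.1 FPKM in parental Huh7, and at 87.1 against 133 FPKM in HepG2. EPCAM was at 25.4 FPKM in resistant and 6.14 FPKM in parental Huh7, and its HepG2 groups overlapped. The 5 endothelial markers, 4 of them under 1 FPKM in all samples of each group, summed to 2.14 to 2.20 FPKM in resistant and 1.38 to 1.55 FPKM in parental Huh7, and to 1.21 to 1.61 FPKM in resistant and 2.58 to 3.68 FPKM in parental HepG2. The part of these markers in the results was not tested. Across all genes tested in Huh7, GC-rich genes had larger log2 differences between resistant and parental cells than GC-poor ones (Spearman's rho across genes 0.62, genes not being independent), whereas rho was 0.04 in HepG2. The 10 metallothionein genes have a median GC content of 53.9%, against 46.7% for the genes tested in Huh7, so that their values in this line are also given with the GC trend removed. What lies behind the trend was not tested.

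The cluster spans chr16:56608199-56684196 on GRCh38, or 75998 bases, and the positions in the tables equal those of GENCODE release 29 for all 10 genes. Of these, 9 lie on the plus strand and 1, MT1G, on the minus strand. MT1L is annotated as a transcribed unprocessed pseudogene and the other 9 as protein-coding. The coding sequences of these 9 are 186 bases long and close copies of each other: over the 36 pairs, identity was 88.7% to 95.2% with a median of 91.4%. Those of MT1E and MT1G, the members highest by mean in 3 of the 4 groups, of MT1M, and of MT2A are shown as GENCODE release 29 gives them, 5′ to 3′ without introns, so that the small distance between the genes can be seen. The positions run from the start to the stop codon on GRCh38, introns included, and capitals mark the bases that differ from MT1E.
MT1E, chr16:56625852-56626971, plus strand: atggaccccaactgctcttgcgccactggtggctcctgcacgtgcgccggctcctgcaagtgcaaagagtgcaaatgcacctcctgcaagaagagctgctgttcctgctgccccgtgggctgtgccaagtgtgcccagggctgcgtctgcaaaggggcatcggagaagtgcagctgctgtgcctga
MT1G, chr16:56666879-56667993, minus strand: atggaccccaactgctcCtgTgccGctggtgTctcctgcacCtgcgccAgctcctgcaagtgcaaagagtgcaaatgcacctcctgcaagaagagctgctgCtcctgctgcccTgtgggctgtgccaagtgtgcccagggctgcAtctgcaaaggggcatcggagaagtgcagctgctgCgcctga
MT1M, chr16:56632732-56633842, plus strand: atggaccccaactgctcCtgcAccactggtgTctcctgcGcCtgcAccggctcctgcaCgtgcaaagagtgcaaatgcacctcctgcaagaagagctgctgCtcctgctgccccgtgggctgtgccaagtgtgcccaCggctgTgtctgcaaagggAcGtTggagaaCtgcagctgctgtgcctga
MT2A, chr16:56608656-56609354, plus strand: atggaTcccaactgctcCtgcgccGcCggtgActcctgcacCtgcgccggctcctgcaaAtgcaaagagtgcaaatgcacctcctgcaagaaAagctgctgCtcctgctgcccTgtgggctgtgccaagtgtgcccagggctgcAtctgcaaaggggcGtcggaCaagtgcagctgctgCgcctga
MT1G differs from MT1E at 10 of 186 positions, and MT1M and MT2A differ from it at 14 each. Over whole transcripts the genes are easier to separate. The share of 50-base windows that also occur in transcripts of another gene ran from 1.22% in MT1F to 19.0% in MT1B, and no window of 100 bases was shared by 7 of the 10 genes. How the authors' counting placed reads that fit several genes is not stated, so values of single members are uncertain to that extent, those of MT1B, MT1X and MT1G most, with 19.0%, 18.3% and 16.5% of windows shared. Windows on either strand were counted. All 72 shared windows of MT1B lay in the gene AC026461.2, and at least 273 of 341 of MT1X in AC026461.1. Those of MT1G and MT1H (15.8%) lay in metallothionein genes or pseudogenes.

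Promoter sequences of 4 of the 10 genes, MT1B, MT1H, MT1X and MT2A, are held in the RefSeq table on GRCh38.p14, and MT1A, MT1E, MT1F, MT1G, MT1L and MT1M have no entry. The 250 bases upstream of each RefSeq start are shown 5′ to 3′ because the metal response element is the site through which the family is known to respond to zinc. All 4 lie on the plus strand, and in GENCODE the genes MT1X and MT2A begin earlier than the RefSeq start, inside or before the window. Capitals mark each match to the letters TGCACNC or TGCGCNC on either strand.
MT1B, chr16:56651636-56651885: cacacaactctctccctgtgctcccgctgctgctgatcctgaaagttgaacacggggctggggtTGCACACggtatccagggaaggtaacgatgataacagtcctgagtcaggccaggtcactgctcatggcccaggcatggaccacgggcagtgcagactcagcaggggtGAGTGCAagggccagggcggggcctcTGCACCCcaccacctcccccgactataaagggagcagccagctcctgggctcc
MT1H, chr16:56669564-56669813: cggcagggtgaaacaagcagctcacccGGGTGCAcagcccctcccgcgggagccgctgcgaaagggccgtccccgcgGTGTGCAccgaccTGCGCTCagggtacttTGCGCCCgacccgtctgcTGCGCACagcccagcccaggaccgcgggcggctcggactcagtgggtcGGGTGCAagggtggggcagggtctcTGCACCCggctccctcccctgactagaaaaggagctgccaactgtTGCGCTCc
MT1X, chr16:56682220-56682469: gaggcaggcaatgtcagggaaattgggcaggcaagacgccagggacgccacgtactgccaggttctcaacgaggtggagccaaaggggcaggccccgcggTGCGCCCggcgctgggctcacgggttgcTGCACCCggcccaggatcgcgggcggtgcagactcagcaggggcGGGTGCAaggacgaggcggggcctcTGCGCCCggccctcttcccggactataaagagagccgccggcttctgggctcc
MT2A, chr16:56608334-56608583: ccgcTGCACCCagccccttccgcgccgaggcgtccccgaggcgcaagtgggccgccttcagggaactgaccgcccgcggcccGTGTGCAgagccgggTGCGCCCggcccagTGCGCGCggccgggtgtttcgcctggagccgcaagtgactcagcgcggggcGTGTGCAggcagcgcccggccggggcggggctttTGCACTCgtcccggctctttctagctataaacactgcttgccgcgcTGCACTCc
The windows hold 3 matches in MT1B, 8 in MT1H, 4 in MT1X and 7 in MT2A. Of 35116 promoters in the table, 24.8% hold at least 1 match in the same window, 1.58% at least 3 and 0.370% at least 4. The letters TGACNNNGC, a core of the antioxidant response element, were found once each in MT1B, MT1X and MT2A and not in MT1H, against 10.9% of all promoters. A match is a description of letters, and no binding was measured.

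In HepG2, the 10 genes together were far higher in resistant than in parental cells, and in Huh7 the sum differed little while single members differed. For the members, whether the lines differ from each other was not tested. In HepG2 their summed level was 1080, 1366 and 1244 FPKM in resistant samples (1230 ± 143, SD, n = 3) and 72.1, 121 and 168 FPKM in parental samples (121 ± 48.1, n = 3), a ratio of 10.2. Every resistant sample lay above every parental sample, although the parental samples spread more in relation to their mean. In Huh7, the sum was 295, 207 and 294 FPKM in resistant samples (265 ± 50.3, n = 3) and 212, 181 and 159 FPKM in parental samples (184 ± 26.5, n = 3), a ratio of 1.44. Here the groups overlapped, since the lowest resistant sample lay below the highest parental sample. With the GC trend removed, the log2 difference of the sum in Huh7 moved from 0.52 to 0.07, and on reads calculated back it was 0.25. Counted as reads, in which longer genes weigh more, the 10 genes took 1143 ± 119 reads per 1000000 in resistant HepG2 and 115 ± 50.7 in parental HepG2, against 245 ± 44.7 and 204 ± 31.3 in resistant and parental Huh7 (SD, n = 3 each).

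**Figure D1:**
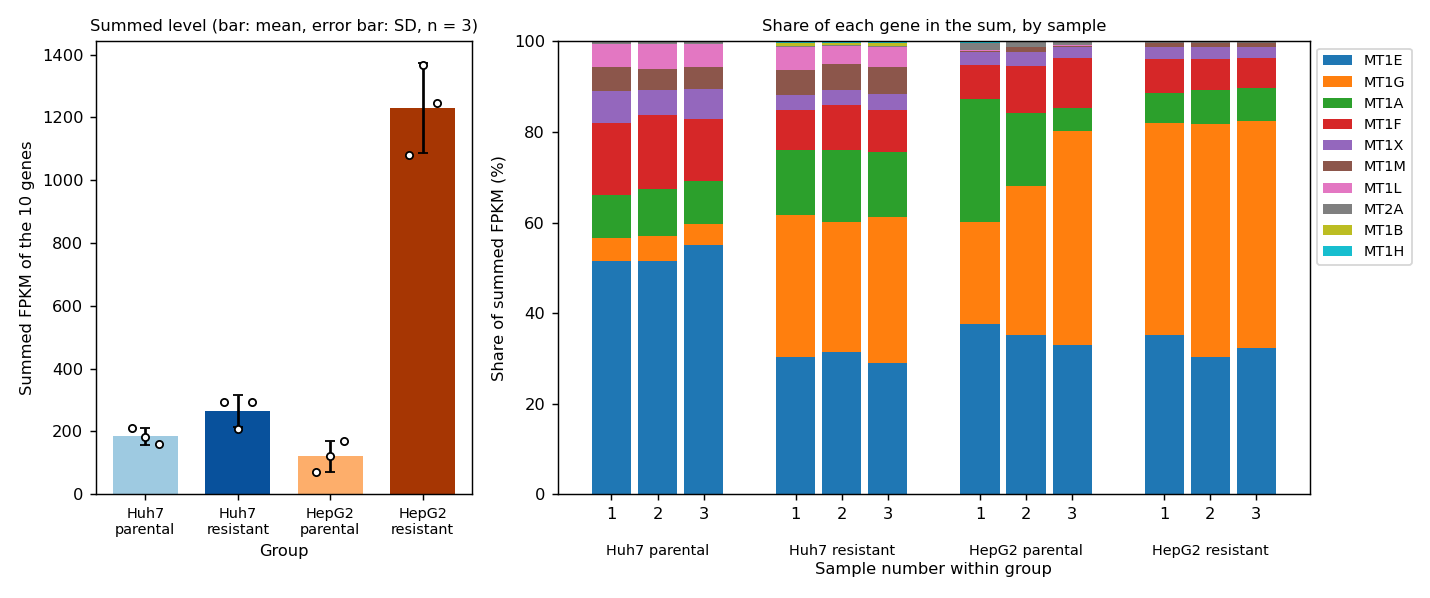
Left, summed FPKM of the 10 metallothionein genes by group (bars are means, error bars SD, points the 3 samples). Right, the share of each gene in that sum, in percent, for each of the 12 samples. The resistant HepG2 samples lie between 1080 and 1366 FPKM and all others at or below 295 FPKM, and MT1G takes 4.81% to 5.51% of the sum in parental Huh7 against 28.7% to 32.4% in resistant Huh7.

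MT1G, which encodes a protein of the MT1 group, was the member with the largest difference in mean FPKM in both lines. It stood at 92.5, 59.4 and 95.2 FPKM in resistant Huh7 and at 10.5, 9.97 and 7.67 FPKM in parental Huh7, with no overlap. The ratio of means was 8.78 and the log2 difference of FPKM + 1 was 2.99 ± 0.20 (limma SE). In HepG2, MT1G was at 507, 702 and 622 FPKM in resistant samples and at 16.2, 40.03 and 79.5 FPKM in parental samples, a ratio of 13.5 and a log2 difference of 3.98 ± 0.47. The resistant samples again lay above all parental samples, but the parental HepG2 samples themselves differed widely. Removing the GC trend lowered the Huh7 difference to 2.47 and the HepG2 difference to 3.87.

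MT1E, which encodes another MT1 protein, was the most abundant member in parental Huh7. In Huh7 it was at 89.2, 65.2 and 84.9 FPKM in resistant samples and 109, 93.2 and 87.6 FPKM in parental samples. These groups overlapped, with a log2 difference of -0.28 ± 0.15. The HepG2 values were 379, 413 and 403 FPKM in resistant samples and 27.1, 42.6 and 55.4 FPKM in parental samples, which gives a ratio of 9.55 and a log2 difference of 3.28 ± 0.24. No parental HepG2 sample came near the resistant ones.

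MT1F and MT1X, which code for MT1 proteins too, also overlapped in Huh7 and were separate in HepG2. MT1F was at 26.3, 20.5 and 27.0 FPKM in resistant Huh7 and 33.9, 29.7 and 22.1 FPKM in parental Huh7, with overlapping groups and a log2 difference of -0.20 ± 0.17. Its HepG2 values were 79.5, 93.0 and 82.2 FPKM in resistant and 5.44, 12.7 and 18.4 FPKM in parental samples, a ratio of 6.96 and a log2 difference of 2.84 ± 0.35. MT1F was thus separate between the HepG2 groups and mixed between the Huh7 groups. MT1X was at 9.60, 7.22 and 10.5 FPKM in resistant Huh7 and 14.9, 10.0 and 10.4 FPKM in parental Huh7 (log2 difference -0.33 ± 0.18), and its groups overlapped. In HepG2, MT1X was at 28.1, 35.9 and 29.7 FPKM in resistant and 2.02, 3.76 and 4.09 FPKM in parental samples, a ratio of 9.49 and a log2 difference of 2.94 ± 0.22. With the GC trend removed, the Huh7 differences of MT1E, MT1F and MT1X were -0.71, -0.73 and -0.77.

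MT1A and MT1M were higher in the resistant samples of both lines, with no overlap between groups. MT1A was at 42.5, 32.7 and 42.1 FPKM in resistant Huh7 and 19.98, 18.7 and 14.8 FPKM in parental Huh7, a ratio of 2.19 and a log2 difference of 1.09 ± 0.15. In HepG2 it was at 72.6, 103.9 and 92.2 FPKM in resistant and 19.6, 19.5 and 8.83 FPKM in parental samples, a ratio of 5.60 and a log2 difference of 2.48 ± 0.29. The parental HepG2 sample lowest in MT1A, replicate 3, was the highest of its group in MT1E, MT1F, MT1G and MT1X. MT1M was at 16.003, 11.6 and 17.1 FPKM in resistant Huh7 and 11.2, 8.19 and 7.82 FPKM in parental Huh7, a ratio of 1.64 and a log2 difference of 0.66 ± 0.18. In HepG2 MT1M was at 10.7, 11.7 and 10.2 FPKM in resistant and 0.162, 1.21 and 0.337 FPKM in parental samples, where 21 reads over the 3 parental samples stand behind the ratio of 19.1. The log2 difference of MT1M in HepG2 was 2.97 ± 0.24 with a pseudocount of 1 and 4.36 with a pseudocount of 0.1. Removing the GC trend left 0.82 for MT1A and 0.15 for MT1M in Huh7, and 2.42 and 2.75 in HepG2.

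The remaining genes were low in at least one line. MT1L, the pseudogene, was at 14.9, 8.33 and 13.2 FPKM in resistant Huh7 and 11.1, 10.3 and 8.13 FPKM in parental Huh7, whereas no HepG2 sample exceeded 0.932 FPKM. Its Huh7 groups overlapped, and its log2 difference of 0.25 ± 0.20 became -0.19 with the GC trend removed. In HepG2 10 reads in resistant and 3 in parental samples gave a ratio of 2.62 per unit of depth (exact 95% interval 0.674 to 14.8).

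MT1B and MT1H were nearly absent from parental cells and low in resistant cells. MT1B was at 2.36, 1.23 and 1.80 FPKM in resistant Huh7 (39 reads) and at 0, 0.156 and 0 FPKM in parental Huh7 (1 read), a ratio of 34.7 per unit of depth with an exact 95% interval of 5.87 to 1405. In HepG2 it was at 1.24, 0.864 and 0.612 FPKM in resistant (18 reads) and 0, 0 and 0.167 FPKM in parental samples (1 read), a ratio of 14.1 with an interval of 2.23 to 589. The resistant samples lay above the parental ones in both lines, on few reads. MT1H was at 0.802, 0.574 and 1.31 FPKM in resistant Huh7 (37 reads) and 0.0771, 0.164 and 0.0856 FPKM in parental Huh7 (4 reads), a ratio of 8.23 (2.96 to 31.8). In HepG2, 23 reads in resistant and 4 in parental samples gave a ratio of 4.51 (1.54 to 18.0). No molecular identifiers are named in the sources used here, so that reads may not be independent molecules.

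MT2A, the only MT2 gene of the cluster and known as an abundant metallothionein of many tissues, was listed at low levels in all samples. It was at 0.812, 0.359 and 0.526 FPKM in resistant Huh7 and 0.987, 0.594 and 0.715 FPKM in parental Huh7, with overlapping groups. In HepG2 it was at 1.64, 3.58 and 3.49 FPKM in resistant and 1.17, 1.44 and 1.27 FPKM in parental samples, a ratio of 2.24 and a log2 difference of 0.72 ± 0.22. Its resistant HepG2 samples lay above the parental ones. Of its 50-base windows, 3.02% are shared with other genes. Whether reads of MT2A were assigned elsewhere or discarded was not tested.

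**Figure D2:**
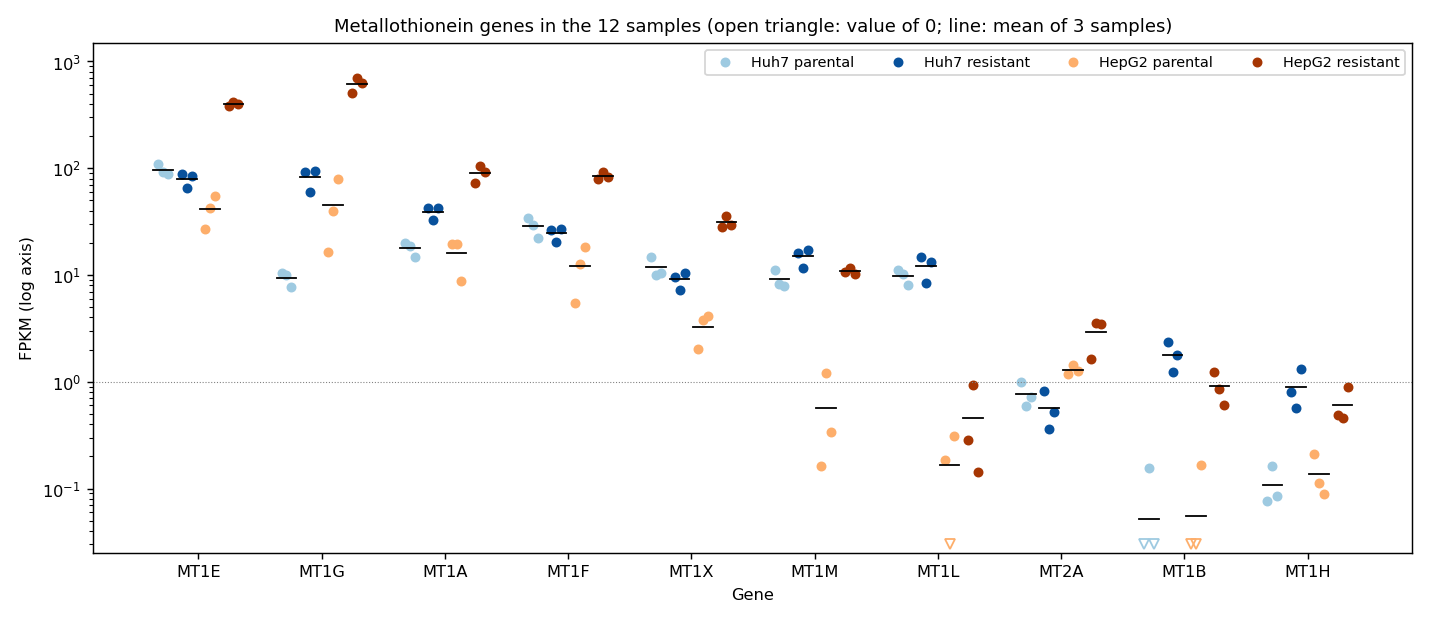
FPKM of each metallothionein gene (log axis) in the 12 samples, with points for samples, short lines for means of 3 and open triangles at the lower edge for values of 0. In HepG2 the resistant samples lie above the parental ones for 9 of 10 genes, whereas in Huh7 MT1E, MT1F, MT1X, MT1L and MT2A overlap.

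Counted over the set, the resistant samples lay above all parental samples in 5 of 10 genes in Huh7 and in 9 of 10 in HepG2, and below in 0. Over all genes tested, the resistant samples were above in 35.2% and below in 39.2% in Huh7, and above in 24.9% and below in 15.5% in HepG2. Called differentially expressed genes (DEGs) were those with a Benjamini-Hochberg adjusted p-value under 0.05 in limma and a log2 difference beyond 1, among genes that reached 1 FPKM in 3 or more of a line's 6 samples. MT1G, MT1B and MT1A met this in Huh7, 3 of 8 that passed the filter, beside 8.59% of all genes tested that were called higher, and MT1A was under the fold without parental Huh7 replicate 3 (0.97) and with the GC trend removed. In HepG2, MT1A, MT1E, MT1F, MT1G, MT1M and MT1X met it, 6 of 7 that passed, beside 3.29% of all genes. MT1H and MT2A in Huh7 and MT1B, MT1H and MT1L in HepG2 did not pass the filter. The median log2 difference of the members that passed was 0.45 in Huh7 and 2.94 in HepG2, beside -0.04 and 0.12 over all genes tested. Since the set was chosen on this contrast and the filter favours members that are high in one group, nothing is read from these counts.

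**Figure D3:**
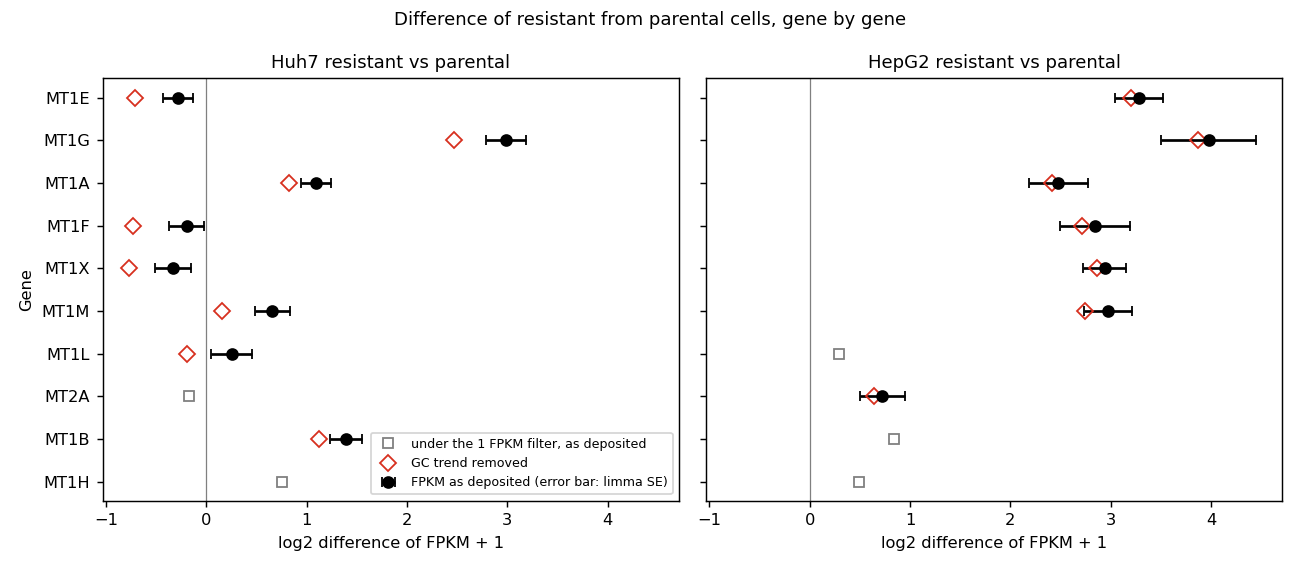
Log2 difference of FPKM + 1 between resistant and parental cells for each gene in Huh7 (left) and HepG2 (right), where filled circles with limma SE show values as deposited, open diamonds values after removal of the GC trend, and open squares genes under the filter of 1 FPKM. Removing the trend moves the Huh7 values to the left, MT1G from 2.99 to 2.47 and MT1L from 0.25 to -0.19, and the HepG2 values less, MT1G from 3.98 to 3.87.

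The make-up of the sum also differed between the groups. In parental Huh7, MT1E made up 51.6%, 51.5% and 54.9% of the summed FPKM, and MT1G 4.94%, 5.51% and 4.81%. In resistant Huh7 both were near 30%, with 30.3%, 31.5% and 28.9% for MT1E and 31.4%, 28.7% and 32.4% for MT1G. The shares did not overlap between the Huh7 groups for either gene. In HepG2, MT1G took 46.9%, 51.4% and 50.02% in resistant cells and 22.5%, 33.0% and 47.2% in parental cells, and MT1E 32.6 ± 2.42% and 35.2% on average. In parental HepG2, MT1A held 27.2%, 16.1% and 5.25% of the sum in the 3 samples, so the make-up varied widely within this group. The shares depend on the exon lengths of the annotation, which count retained introns and run from 380 bases in MT1B to 1889 in MT1F.

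By mean level, MT1G and MT1E overlapped at the top of resistant Huh7 and of parental HepG2, while in resistant HepG2 MT1G stood apart above MT1E. In parental Huh7 MT1E stood apart above MT1F, and MT1F above MT1A. Below these, MT1A and MT1X, MT1X and MT1L, MT1L and MT1G, and MT1G and MT1M had overlapping ranges in parental Huh7. By mean FPKM, MT1G was thus the sixth in parental Huh7 and the highest in the other groups. In parental HepG2 it exceeded MT1E in replicate 3 only. The order also depends on exon length. In reads, MT1E exceeded MT1G in resistant Huh7 (4803 against 3532) and in parental HepG2 (1841 against 1467).

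The parental lines were also compared with each other. The choice of genes rested on the contrast of resistant with parental cells and not on this one, but their parental levels were known when they were chosen and the same samples stand behind the differences above, so that the p-values here are no independent evidence. Of the 10 genes, 5 reached 1 FPKM in every parental sample of both lines, and 3 of these were called higher and 1 lower in Huh7 than in HepG2 by limma with Benjamini-Hochberg adjustment over 12796 genes. Over all genes tested, 19.4% were called higher and 12.5% lower, with a median log2 difference of 0.19. Of these calls 60.8% were higher, and 49.8% with median-ratio scaling.

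A further 3 genes, MT1L, MT1M and MT2A, passed the filter mainly through the line in which they are higher, so their values are given without a test. MT1L was at 9.83 ± 1.54 FPKM in parental Huh7 and 0.165 ± 0.156 FPKM in parental HepG2 (SD, n = 3 each), with 207 and 3 reads and a ratio per unit of depth of 55.7 (exact 95% interval 18.8 to 272). MT1M was at 9.08 ± 1.88 against 0.569 ± 0.561 FPKM, with 439 and 21 reads. For both, all Huh7 samples lay above all HepG2 samples. MT2A was at 0.765 ± 0.201 against 1.30 ± 0.135 FPKM, with the Huh7 samples below the HepG2 ones.

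MT1X, MT1F and MT1E were higher in parental Huh7 than in parental HepG2. As stated above, the parental levels were known when the genes were chosen, so the p-values that follow are no independent evidence. MT1X was at 11.8 ± 2.71 against 3.29 ± 1.11 FPKM (log2 difference 1.59 ± 0.24, adjusted p = 0.000483, limma), MT1F at 28.6 ± 5.94 against 12.2 ± 6.48 FPKM (1.28 ± 0.37, adjusted p = 0.0148) and MT1E at 96.8 ± 11.4 against 41.7 ± 14.2 FPKM (1.25 ± 0.25, adjusted p = 0.00231). In each, all 3 Huh7 samples lay above all 3 HepG2 samples. Without parental HepG2 replicate 1, the lowest sample in these genes, the log2 differences of MT1F and MT1E were 0.84 and 0.97 and so under the fold required. MT1G went the other way, at 9.37 ± 1.49 FPKM in parental Huh7 and 45.3 ± 32.0 FPKM in parental HepG2 (log2 difference -1.90 ± 0.47, adjusted p = 0.00756, limma), and was lower in 3 of 3 Huh7 samples. MT1A did not pass the test (0.22 ± 0.29, adjusted p = 0.523). MT1B and MT1H, with at most 4 reads in a group, could not be compared. The summed level was 184 ± 26.5 FPKM in parental Huh7 and 121 ± 48.1 FPKM in parental HepG2, and the samples overlapped.

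**Figure D4:**
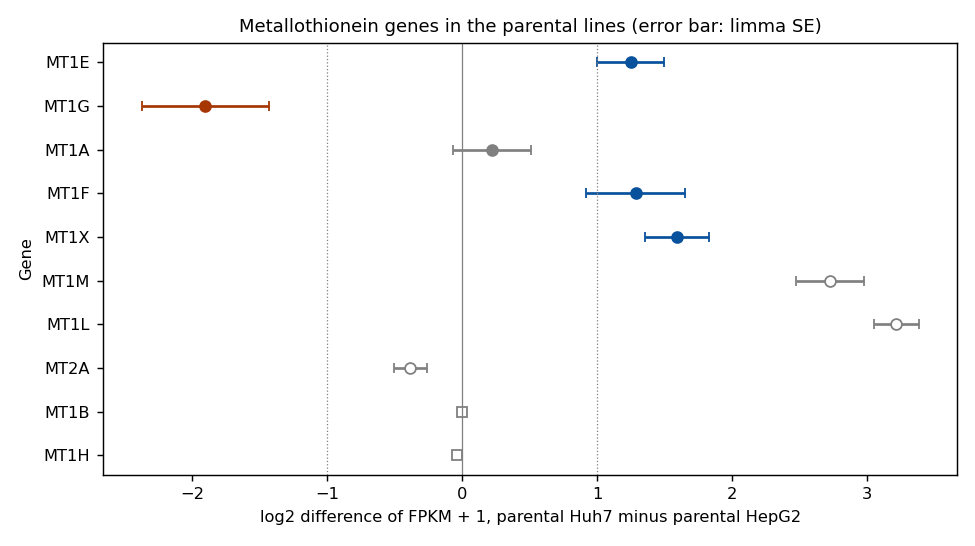
Log2 difference of FPKM + 1 between parental Huh7 and parental HepG2 for each metallothionein gene, with limma SE as error bars (blue, called higher in Huh7; brown, called lower; filled grey, not called; open circles, genes that did not reach 1 FPKM in every parental sample and are given without a test; open squares, under the filter; dotted lines at 1 and -1). MT1X (1.59), MT1F (1.28) and MT1E (1.25) lie to the right of 1 and MT1G (-1.90) to the left of -1.

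Other metallothionein genes were then examined. Of 11 listed, 6 were found in the tables and 2 passed the filter. MT2P1, a processed metallothionein pseudogene on chromosome 4 in which 20 windows of 50 bases of an MT2A transcript also occur, was at 7.42, 14.0 and 13.3 FPKM in resistant HepG2 and 0.832, 0.889 and 2.08 FPKM in parental HepG2 (log2 difference 2.47, adjusted p = 0.00119, limma). In Huh7 it was at 4.58 ± 0.609 FPKM in resistant and 2.04 ± 0.488 FPKM in parental samples (0.88, adjusted p = 0.000787), under the fold required. The resistant samples lay above the parental ones in both lines. MT1P1, a processed pseudogene on chromosome 9, was called in neither line (log2 differences -0.42 in Huh7 and -0.71 in HepG2). The brain metallothionein MT3 and the pseudogenes MT1JP, MT1CP and MT1P3 were under 1 FPKM in all samples, except MT1CP with 2.00 FPKM in 1 resistant HepG2 sample.

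MTF1, the zinc-sensing activator of the family, did not pass the test in either line. It was at 3.84, 4.89 and 4.13 FPKM in resistant Huh7, 4.19, 3.94 and 3.73 FPKM in parental Huh7, 4.29, 3.46 and 4.57 FPKM in resistant HepG2 and 3.45, 3.48 and 4.67 FPKM in parental HepG2. The groups overlapped in both lines (log2 differences 0.09 ± 0.11 and 0.07 ± 0.16). Of the 10 regulators of metallothionein transcription tested, 2 were called higher and 0 lower in Huh7, and 0 were called in HepG2, where 2 had an unadjusted p under 0.05 and limma-voom called 0 as well. Of all genes tested, 22.6% were called in Huh7 (8.59% higher, 14.0% lower) and 6.27% in HepG2 (3.29% higher, 2.98% lower). The 2 were the heat shock factor gene HSF1 (12.4 ± 1.89 against 4.62 ± 0.465 FPKM, log2 difference 1.24) and USF1, an E-box binding factor (26.9 ± 3.35 against 12.98 ± 2.46 FPKM, 1.01), and neither reached the fold once the GC trend was removed (0.78 and 0.54). The glucocorticoid receptor gene NR3C1 had log2 differences of -0.50 in Huh7 and -0.35 in HepG2. They were -0.53 and -0.32 for the oxidative stress factor gene NFE2L2 and 0.72 and -0.31 for the interleukin 6 effector gene STAT3. None was past the fold required. In Huh7 the adjusted p was 0.0023 for NR3C1, 0.0037 for NFE2L2 and 0.0011 for STAT3 (limma), with no overlap between groups. Their HepG2 groups overlapped. KEAP1 in HepG2 was at 35.8 ± 5.91 FPKM in resistant and 18.4 ± 4.19 FPKM in parental samples, with no overlap. Its log2 difference of 0.94 (adjusted p = 0.0145, limma) was just under the fold required, and its Huh7 groups overlapped.

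SLC30A1, which exports zinc from the cell and is itself a known target of MTF1, was at 6.87, 6.24 and 6.39 FPKM in resistant Huh7 and 13.8, 14.4 and 14.6 FPKM in parental Huh7 (log2 difference -1.02, adjusted p = 6.26e-05, limma). In HepG2 it was at 20.7, 14.6 and 16.6 FPKM in resistant and 5.91, 6.90 and 13.8 FPKM in parental samples (0.96, adjusted p = 0.0446), just under the fold required. The samples did not overlap in either line, and the interaction of line and resistance was -1.99 ± 0.32 (adjusted p = 0.000389, limma), a term that was called in 28.3% of all genes tested. The call in Huh7 sits at the threshold and was lost with the GC trend removed (-0.23), while the interaction was still called (-1.11).

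Of 16 zinc transporters tested in Huh7, 2 were called higher and 2 lower. Of 17 in HepG2, 1 was called higher and 0 lower. Among all genes tested, 8.59% were called higher and 14.0% lower in Huh7, and 3.29% and 2.98% in HepG2. Nothing is read from these counts. The importers SLC39A5 (17.6 ± 2.14 against 5.07 ± 0.388 FPKM, log2 difference 1.61) and SLC39A1 (1.02) were higher in resistant Huh7, and SLC30A1 and the mitochondrial zinc transporter gene SLC30A9 (-1.55) were lower. In HepG2 the importer SLC39A4 was at 1.64, 5.21 and 5.50 FPKM in resistant and 1.29, 0.873 and 1.16 FPKM in parental samples (1.17, adjusted p = 0.0377, limma). In 5 of the 6 fits leaving out 1 HepG2 sample, SLC39A4 was not called. The importer SLC39A10, whose mouse counterpart is known to be repressed by MTF1, did not pass the test (-0.30, adjusted p = 0.126 in Huh7 and -0.96, adjusted p = 0.0812 in HepG2), and its Huh7 difference was 0.52 with the GC trend removed. With that trend removed, 1 zinc transporter in Huh7 was called.

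**Figure D5:**
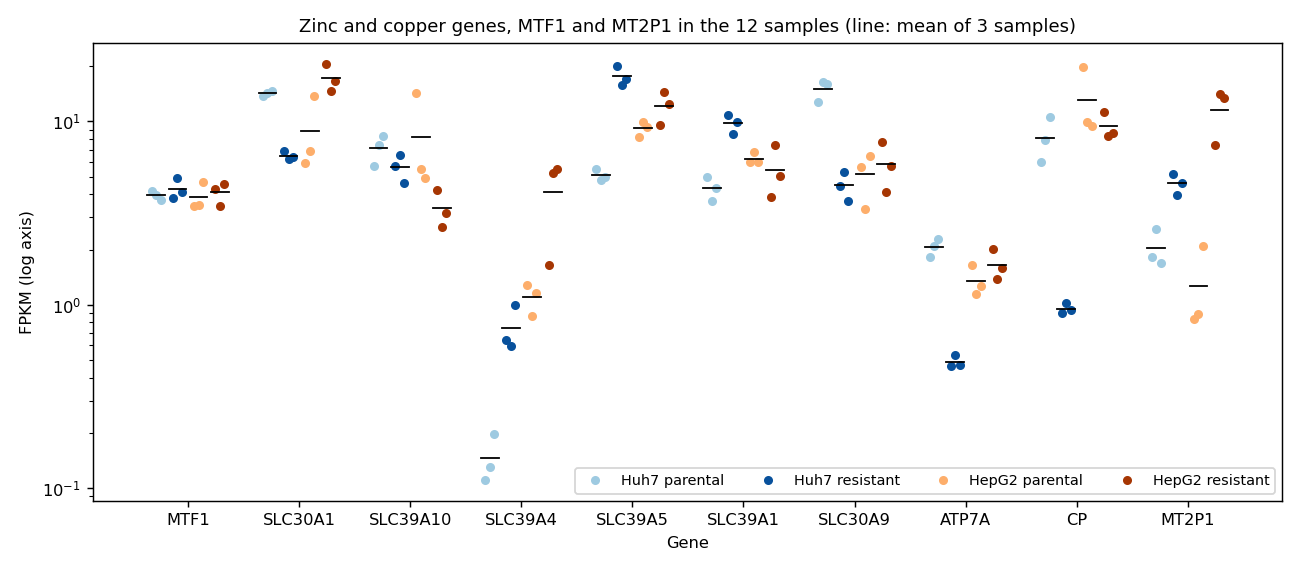
FPKM (log axis) of MTF1, 6 zinc transporter genes, the copper genes ATP7A and CP, and the pseudogene MT2P1 in the 12 samples, with short lines for means of 3. SLC30A1 is lower in resistant than in parental Huh7 (6.50 against 14.2 FPKM) and higher in resistant than in parental HepG2 (17.3 against 8.85 FPKM), while MTF1 stays between 3.45 and 4.89 FPKM.

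Among 9 copper genes tested, 2 were called lower in resistant Huh7. One was CP, the gene of a secreted copper-containing oxidase (0.9498 ± 0.0612 against 8.14 ± 2.29 FPKM, log2 difference -2.20). The other was the copper pump gene ATP7A (-1.04, or -0.31 with the GC trend removed). In HepG2 0 were called by limma and by limma-voom, and 2 had an unadjusted p under 0.05. Of 14 tested genes other than metallothioneins that cadmium is known to induce, 4 were called higher and 1 lower in Huh7. In HepG2, 1 was called higher and 3 lower. Beside the copper and cadmium counts stand 8.59% higher and 14.0% lower in Huh7 over all genes tested. In HepG2 these shares are 3.29% and 2.98%. Nothing is read from the counts. The 4 in Huh7 were the quinone reductase gene NQO1 (710 ± 22.9 against 52.8 ± 5.47 FPKM, log2 difference 3.73), the autophagy receptor gene SQSTM1 (1.59), OSGIN1 (1.16) and the chaperone gene HSPA1B (1.00), a near-identical copy of HSPA1A whose reads may have been split. The cystine transporter gene SLC7A11 was called lower (-1.15). In HepG2, the small heat shock protein gene HSPB1 was called higher (39.1 ± 11.9 against 13.2 ± 1.39 FPKM, 1.46) and 3 were called lower, SLC7A11 (-1.84), the glutathione synthesis gene GCLM (-1.07) and the thioredoxin reductase gene TXNRD1 (-1.03).

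Of the glucocorticoid-induced genes, 1 of 11 was called higher in Huh7, ZFP36 (log2 difference 1.19; limma-voom called 4 higher and 1 lower), and 3 of 9 lower in HepG2, ERRFI1 (-2.50), DUSP1 (-1.45) and GADD45A (-1.30). Among 14 thiol antioxidant genes, 3 were called higher in Huh7, the glutathione peroxidase gene GPX2 (266 ± 37.3 against 23.6 ± 3.60 FPKM, 3.44) and the peroxiredoxin genes PRDX4 (1.43) and PRDX2 (1.18). In HepG2 GPX4 alone was called higher (1.07, adjusted p = 0.0457, limma), and 5 of the 6 fits leaving out 1 HepG2 sample did not call it. Among all genes tested, 8.59% were called higher and 14.0% lower in Huh7, and 3.29% and 2.98% in HepG2. Nothing is read from the counts of these lists. With the GC trend removed, the counts called in Huh7 were 3 higher in the cadmium list, 1 lower in the glucocorticoid list and 2 higher in the thiol list.

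None of the genes tested beside the cluster was called. Of 13 protein-coding genes within 500 kb of the outermost members, 8 were tested in Huh7 and 9 in HepG2, and 0 were called in either line. Of all genes tested, 22.6% were called in Huh7 and 6.27% in HepG2, so with so few neighbours nothing is read from this count. Of the neighbours, 5 in each line had an unadjusted p under 0.05 in limma, and limma-voom called 1 in each, NUP93 in Huh7 and NLRC5 in HepG2. Their log2 differences ran from -0.44 to 0.98 in Huh7 and from -0.74 to 0.83 in HepG2, while the metallothionein genes that passed the filter, chosen on this contrast, ran from -0.33 to 2.99 in Huh7 (8 genes) and from 0.72 to 3.98 in HepG2 (7 genes). Between the parental lines, 1 of 9 neighbours was called higher and 4 lower in Huh7, beside 19.4% and 12.5% of all genes tested.

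Finally, the 12-sample profile of the summed metallothionein level was set against those of 10682 other genes tested in both lines, as the root-mean-square difference of centred log2(FPKM + 1). The nearest were MT2P1 (0.48), the heparan sulfatase gene SULF2 (0.59), the chemokine gene CX3CL1 on chromosome 16 (0.69), the RNA-binding protein gene RBM38 (0.70) and the receptor gene FGFR1 (0.70). SULF2 was at 6.84 ± 0.0433 and 6.85 ± 1.02 FPKM in resistant and parental Huh7 and at 17.6 ± 1.15 and 1.72 ± 0.299 FPKM in resistant and parental HepG2. Among the members, MT1E (0.32), MT1F (0.43) and MT1X (0.52) were nearest to the sum of which they are part. MT1A (0.63) came next, and MT1L (2.29) was farthest from it. Not all members shared the profile of the sum. For MT2A (1.02), MT1M (1.21) and MT1G (1.23), 223, 1815 and 2170 of the other genes were nearer to it. The list is a description of likeness across 12 samples that fall into 4 groups.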

How the data were processed

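RNA sequencing data of 12 samples in 4 groups, taken from the sample labels, were used: sorafenib-resistant and parental cells of 2 lines, Huh7 and HepG2. The authors deposited 1 table per sample with FPKM-like decimals for 27249 Ensembl and 71462 NONCODE genes, and the unit, aligner, counter and strand setting are not given in the sources used here (the submitters' processing notes name GRCh38 and bcl2fastq). Labels and methods name different RNA extraction reagents. NONCODE genes were left out of the tests.

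The members and all gene lists were chosen with earlier results of these data known. Named genes are the members, other metallothionein genes found, 6 fixed regulators and transporters, up to 4 called genes per list and line with the largest change, called neighbours within 500 kb and the 5 genes nearest in profile.

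Tables were read with Python 3.11.15 and pandas 2.3.3. Genes reaching 1 FPKM in 3 or more of the 6 samples compared (6 of 12 for the interaction) were fitted on log2(FPKM + 1) with limma 3.58.1 in R 4.3.3, with a variance trend, two-sided, and Benjamini-Hochberg adjustment over all genes tested. A pseudocount of 1 understates changes of low genes. A gene was called at an adjusted p-value below 0.05 with a log2 difference above 1 in size. The fit was tested on simulated data. Reads were calculated back from value steps (96.3% to 96.5% of values within 0.05 of a whole read per sample), with exon lengths from GENCODE release 29; a floor of 3 reads per sample and exact 95% intervals cover counting error only. The GC and length trends were lowess curves with a span of 0.3. Alternatives were a pseudocount of 0.1, no filter, median-ratio scaling, limma-voom on reads, the replicate number as a block, both trend removals and leaving out each sample.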

Additional observations from a re-analysis of the deposited data

Results flagged for a closer look

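The interaction of cell line and resistance, fitted in all 12 samples with limma, passed the thresholds for 20 named genes outside the cluster. Most of the named genes were chosen because they were called between resistant and parental cells with a large change. The same samples stand behind the interaction, so this choice favours a high count. The interaction passed in 28.3% of all genes tested, and nothing is read from the count beside this share. A positive value means a larger log2 difference between resistant and parental cells in Huh7 than in HepG2. Among metal genes it was -1.99 for SLC30A1, -1.59 for MT2P1, -1.70 for SLC30A9, 1.23 for SLC39A1, 1.26 for SLC39A5, -1.22 for ATP7A and -1.83 for CP. Among regulators it was 1.04 for STAT3 and 1.41 for HSF1. Among stress and glucocorticoid genes it was 3.92 for NQO1, 2.41 for SQSTM1, 1.78 for TXNRD1, 1.70 for OSGIN1, 2.33 for ERRFI1, 1.50 for ZFP36, 1.48 for DUSP1 and 1.10 for GADD45A. Among thiol antioxidants it was 4.36 for GPX2, -1.36 for GPX4 and 1.17 for PRDX2. With the GC trend removed, ATP7A (-0.40), SLC30A9 (-0.90), SLC39A1 (0.85), SLC39A5 (0.99), STAT3 (0.86), GADD45A (0.87) and PRDX2 (0.79) were no longer past the fold required. With the length trend removed MT2P1, ATP7A and GADD45A were not called, and fits leaving out 1 sample did not call STAT3 in 3 cases (without parental Huh7 replicate 3, resistant HepG2 replicate 1 or parental HepG2 replicate 2), GADD45A in 1 (parental Huh7 replicate 3) and PRDX2 in 1 (parental HepG2 replicate 2). For the metallothionein genes themselves this difference was not tested.

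A NONCODE gene at chr16:56665625-56666496 on the plus strand, NONHSAG108243.1, lies beside the 3′ end of MT1G and was outside the comparisons. It is 1 of 6 NONCODE genes within the cluster, of which the other 5 overlapped between resistant and parental samples in both lines. Over all Ensembl genes tested in HepG2, the resistant samples lay above in 24.9%, so nothing is read from 1 in 6. NONHSAG108243.1 was at 0.609, 0.439 and 0.333 FPKM in resistant HepG2 (mean 0.461) and at 0, 0.0933 and 0.0729 FPKM in parental HepG2, with no overlap. In Huh7 it did not exceed 0.0681 FPKM. This difference was not tested.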

How the results depend on the processing

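MT1E, MT1F, MT1G and MT1X, called between the parental lines, were also called under all 7 other settings tried on the full set of samples. The same held in the fits leaving out 1 parental sample, except for MT1E and MT1F without parental HepG2 replicate 1. All these fits use the same chosen genes and samples and add no independent evidence. In Huh7, 2 to 3 metallothioneins were called between resistant and parental cells in fits leaving out 1 sample, as MT1B then failed the filter or MT1A fell under the fold, and in HepG2 6 in each. The log2 difference of the sum ran from 0.42 to 0.68 in Huh7 and from 3.09 to 3.69 in HepG2 over these fits, and MT1A between the parental lines from -0.14 to 0.40. On reads calculated back with limma-voom, 4295 genes were called in Huh7 (2838 as reported) and 1157 in HepG2 (737), and the Huh7 sum differed by 0.25. With the GC trend removed, 1487 genes were called in Huh7 and the sum differed by 0.071, where each tested member was shifted by its own change. Signs turned for some genes that were not called. Among them were MT1A between the parental lines (-0.15 with the length trend removed, -0.14 without parental HepG2 replicate 3) and MTF1 in HepG2 (-0.018) with median-ratio scaling. In Huh7 with the GC trend removed, they were MT1L (-0.19), NR3C1 (0.22) and SLC39A10 (0.52). The cause was not tested. Median-ratio scaling moved the share of calls that were higher from 52.5% to 40.1% in HepG2 and from 38.1% to 51.5% for the interaction. Replicate numbers were not taken as pairs in the main fits. Between same-numbered samples of compared groups, the correlation used to look for pairs ran from -0.23 to 0.44. It is a separate measure from the correlation of samples within a group, which was 0.98 to 0.99. In HepG2 the same number was the best match for replicates 1 (0.25) and 2 (0.44) but not for 3 (-0.01), so a pairing is neither shown nor excluded. With the replicate block 2841, 779, 4097 and 3428 genes were called in Huh7, HepG2, the parental lines and the interaction (2838, 737, 4081 and 3418 without). The block changed no call of a named gene. Levels under 1 FPKM rest on few reads, which limits MT1B, MT1H, MT1L in HepG2 and MT2A.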
